A study of Rattus norvegicus with 6 samples.

Results

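The genes described here are the ligands of the tumour necrosis factor (TNF) superfamily and the receptors of the TNF receptor superfamily that the platform annotation names. They were taken by symbol, under a rule that names every Tnfsf or Tnfrsf gene with a number and 11 genes with other names. Of 20530 genes with a row naming them alone, 38 were members, 24 receptors and 14 ligands. Tnf itself and the lymphotoxin genes Lta and Ltb were named in the rule but matched no annotated row, and are not analysed here. RNA came from the lumbar spinal cord, levels L2 to L6, of Sprague-Dawley rats, and each rat was measured on its own Affymetrix array. In the lidocaine group, 3 rats had received 20 µL of 10% lidocaine, a sodium channel blocker used as a local anaesthetic, into the intrathecal space. In the control group, 3 rats had no treatment at all, so drug and injection cannot be told apart. Cords of both groups were removed on day 4, after behavioural testing. The sources used here give neither age nor sex.

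Ligands of the TNF superfamily are mostly membrane proteins that act as trimers and can be shed by proteases. Their receptors either carry a death domain, which can recruit caspases, or bind TRAF adaptors that switch on NF-kB, and a few are decoys that bind a ligand without signalling. In the nervous system, TNF receptors are best known from microglia, astrocytes and neurons after injury, while many other members are signals between lymphocytes and antigen-presenting cells.

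The authors summarised each transcript cluster on a log2 scale with RMA, and a change is the lidocaine mean minus the control mean. A gene is said to have risen or fallen when limma's moderated test gave an adjusted p under 0.05, with Benjamini-Hochberg adjustment over all 20995 rows tested. Arrays correlated at 0.9926 to 0.9972 within groups and at 0.9784 to 0.985 between groups across these rows, which are not independent replicates. Neuron, oligodendrocyte and astrocyte markers were bright on every array, with list means of 7.38 to 8.99 on the log2 scale where measured, and the lumbar genes Hoxc10, Hoxd10 and Hoxa11 had group means of 5.07 to 5.90 in the lidocaine rats and 5.56 to 6.33 in the control rats. All 3 fell (log2 changes -0.43, -0.51 and -0.49, limma adjusted p = 0.0116, 0.0191 and 0.00424).

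Of the 24 receptors, 9 rose, 0 fell and 15 did not pass. Of the 14 ligands, 2 rose, 1 fell and 11 did not pass. The difference between receptors and ligands was not tested. Together, 12 of 38 members changed, which is 31.6%, against 23.6% of all rows tested. Rises made up 28.9% of members, against 9.69% of all rows, and the 1 fall made up 2.63%, against 13.9%. The median log2 change was 0.13 over the members, -0.01 over all rows and 0.07 over the 1153 negative control rows. How far this background shift enters the changes of dim members was not tested. In 15 members, or 39.5%, the lidocaine and control rats did not overlap, which is close to the 40.4% of all rows. After each array was centred on its median, 10 members rose and 2 fell, and rises made up 30.5% of the calls over all rows, against 41.1% without centring.

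**Figure D1:**
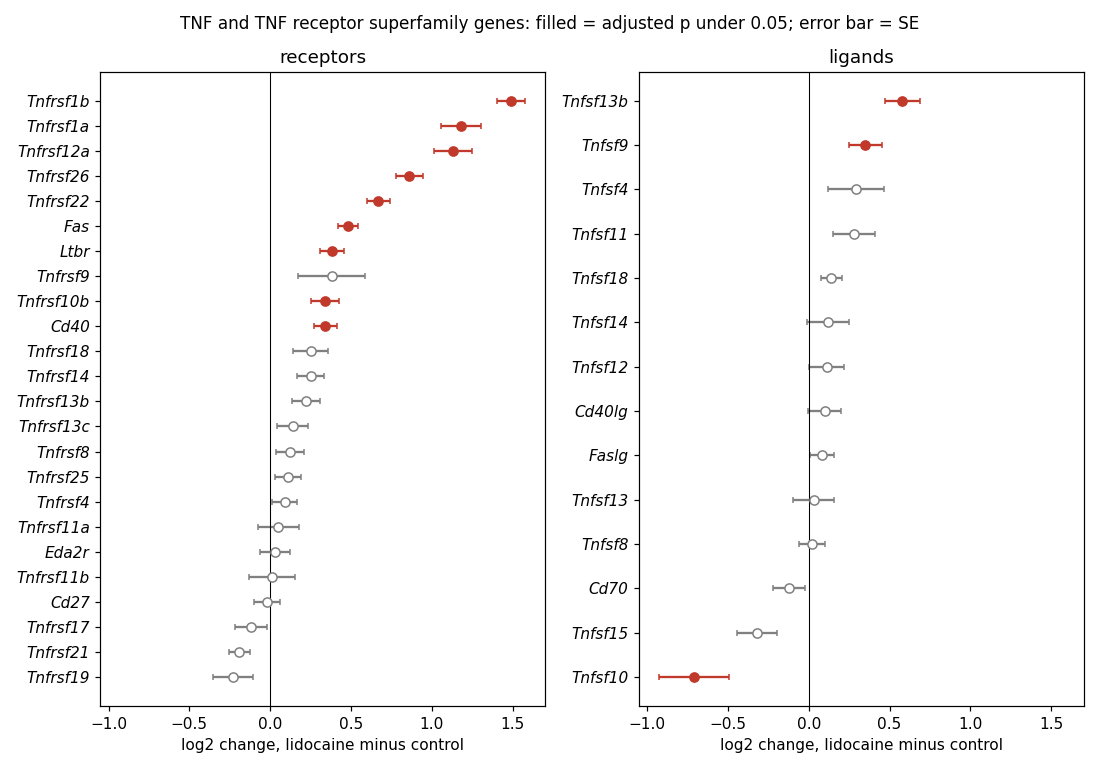
Log2 change (lidocaine minus control, x axis) of the 24 receptors and the 14 ligands, ordered by size within each panel, with the SE of the limma fit. Filled points passed adjusted p 0.05, and they are 9 receptors on the right of 0 and 3 ligands, of which Tnfsf10 lies on the left.

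The largest changes were those of the receptors for TNF and for the TWEAK ligand. Tnfrsf1b, which encodes the TNF receptor 2 of leukocytes, microglia and endothelium, read 6.54, 6.34 and 6.24 in the lidocaine rats and 4.92, 4.85 and 4.87 in the control rats. Every lidocaine value lay at least 1.31 log2 units above every control value. The rise of Tnfrsf1b was 2.8-fold, with n = 3 in each group (log2 change 1.49 ± 0.085, SE, limma adjusted p = 7.22e-05). Tnfrsf1a, the death domain receptor for TNF that most cell types carry, read 6.52, 6.41 and 6.67 in the lidocaine rats and 5.08, 5.54 and 5.42 in the control rats. The groups were apart by 0.87, and control rat 1 was the lowest of the 6. Tnfrsf1a rose 2.27-fold (log2 change 1.18 ± 0.126, SE, limma adjusted p = 0.000961).

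Tnfrsf12a, also called Fn14, is the small receptor for TWEAK and is known as an injury-induced gene in many tissues. It read 6.60, 6.81 and 7.03 in the lidocaine rats and 5.68, 5.82 and 5.56 in the control rats. The groups were apart by 0.77, with lidocaine rat 3 the highest. Tnfrsf12a rose 2.18-fold (log2 change 1.13 ± 0.119, SE, limma adjusted p = 0.000944). Its ligand TWEAK, encoded by Tnfsf12, read 5.54, 5.63 and 5.94 in the lidocaine rats and 5.60, 5.69 and 5.50 in the control rats. Those groups overlapped, and the log2 change of Tnfsf12 was 0.11 ± 0.111 (SE, limma adjusted p = 0.557). The difference between the changes of receptor and ligand was not tested.

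Promoter windows were available for 28 of the 38 members, from RefSeq on assembly GRCr8, each spanning 250 bases before and 50 bases after a gene start. They are shown for the 3 receptors with the largest rises, for Fas, and for Tnfrsf8, which lies next to Tnfrsf1b on the same strand and did not pass the test. Capitals mark matches, on either strand, to a simplified NF-kB motif (GGGA, then 4 bases of any kind, then CC) or to TGANTCA, an AP-1 motif.
Tnfrsf1b, chr5:162387362-162387661, - strand: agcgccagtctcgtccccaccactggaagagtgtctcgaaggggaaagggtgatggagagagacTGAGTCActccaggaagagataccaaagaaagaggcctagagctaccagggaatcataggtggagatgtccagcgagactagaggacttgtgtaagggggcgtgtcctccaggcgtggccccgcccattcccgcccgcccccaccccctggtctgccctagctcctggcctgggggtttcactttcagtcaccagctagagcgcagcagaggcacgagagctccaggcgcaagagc
Tnfrsf1a, chr4:159836869-159837168, + strand: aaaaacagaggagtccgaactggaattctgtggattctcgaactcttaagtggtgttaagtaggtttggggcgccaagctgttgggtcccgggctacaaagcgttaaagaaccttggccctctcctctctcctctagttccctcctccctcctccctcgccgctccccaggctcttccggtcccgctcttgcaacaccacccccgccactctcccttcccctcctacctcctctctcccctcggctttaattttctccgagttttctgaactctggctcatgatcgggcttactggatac
Tnfrsf12a, chr10:13213599-13213898, - strand: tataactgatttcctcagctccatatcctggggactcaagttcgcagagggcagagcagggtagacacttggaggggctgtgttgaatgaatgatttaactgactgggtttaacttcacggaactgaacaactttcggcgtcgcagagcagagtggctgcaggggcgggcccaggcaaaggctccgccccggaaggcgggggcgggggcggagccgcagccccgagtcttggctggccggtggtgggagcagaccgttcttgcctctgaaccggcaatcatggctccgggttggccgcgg
Fas, chr1:241211905-241212204, + strand: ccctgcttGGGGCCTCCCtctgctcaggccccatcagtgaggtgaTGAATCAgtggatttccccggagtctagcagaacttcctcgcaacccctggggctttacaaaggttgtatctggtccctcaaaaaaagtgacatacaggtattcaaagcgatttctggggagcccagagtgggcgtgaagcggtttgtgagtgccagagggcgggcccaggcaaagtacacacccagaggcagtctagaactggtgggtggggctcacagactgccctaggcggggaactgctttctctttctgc
Tnfrsf8, chr5:162451571-162451870, - strand: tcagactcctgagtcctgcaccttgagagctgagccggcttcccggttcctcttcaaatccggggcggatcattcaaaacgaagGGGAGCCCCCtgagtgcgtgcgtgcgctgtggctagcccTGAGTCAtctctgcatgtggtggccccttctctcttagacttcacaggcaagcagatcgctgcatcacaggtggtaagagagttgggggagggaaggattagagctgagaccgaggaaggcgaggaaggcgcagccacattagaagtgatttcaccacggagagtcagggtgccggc
The windows of Tnfrsf1a and Tnfrsf12a held neither motif. That of Tnfrsf1b held an AP-1 match starting 186 bases before the gene start, and those of Fas and Tnfrsf8 held 1 match to each motif. The NF-kB motif was found for 1 of the 8 members that rose and have a window and for 6 of the 19 that did not pass. Of all 27457 rat genes with windows of this length, 20.9% had it. The AP-1 motif was found for 2 of the 8 that rose, for 1 of the 19 that did not pass, and for 8.04% of all these genes. A match is a string of letters in the window, and none of these arrays measured binding.

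**Figure D2:**
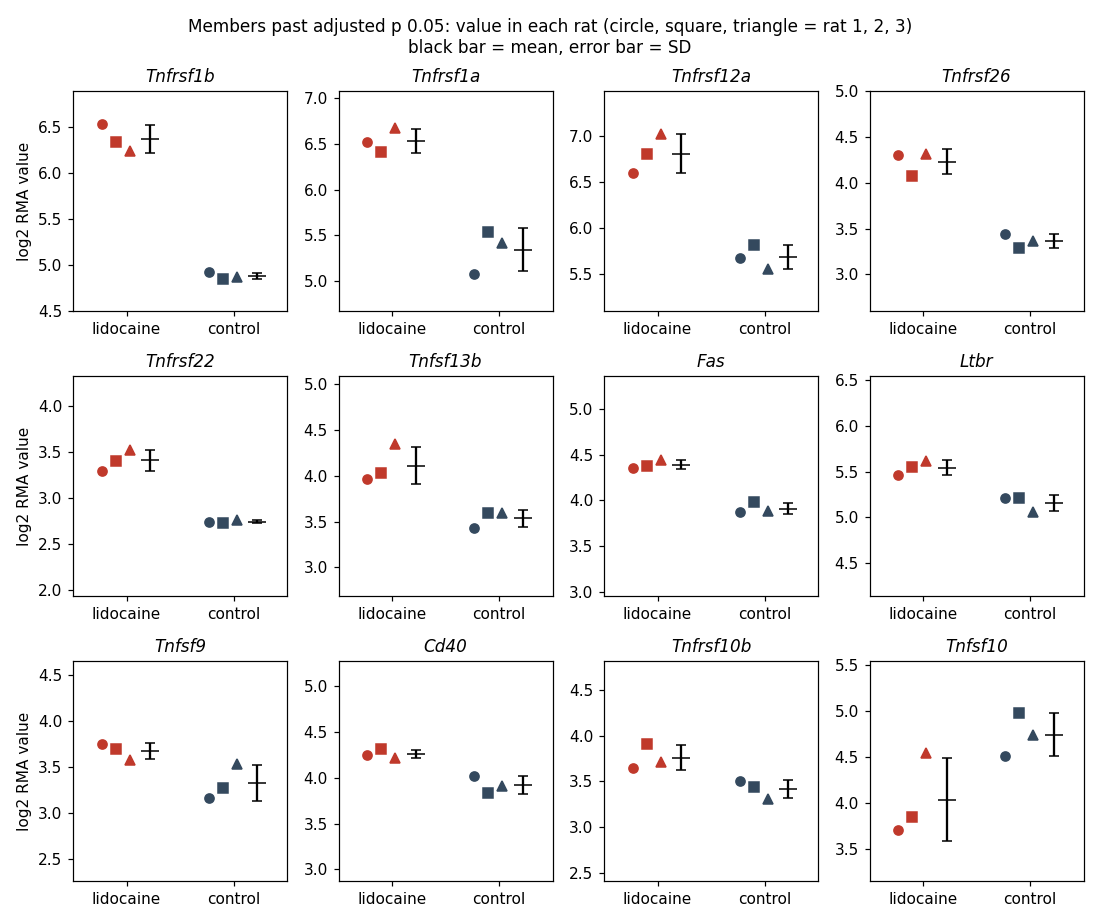
Log2 RMA value (y axis) of each rat for the 12 members past adjusted p 0.05, lidocaine on the left and control on the right of each panel, with mean and SD. All panels span the same number of log2 units, and the groups overlap only for Tnfsf10.

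A pair of receptor genes that adjoin each other on chromosome 1 of GRCr8 rose together. Tnfrsf26 and Tnfrsf22 are receptors of the TNF superfamily known in mice as relatives of the TRAIL receptors, and Tnfrsf22 is known there as a decoy for TRAIL. Tnfrsf26 read 4.30, 4.07 and 4.31 in the lidocaine rats and 3.44, 3.29 and 3.36 in the control rats, a rise of 1.82-fold (log2 change 0.86 ± 0.083, SE, limma adjusted p = 0.00067). Tnfrsf22 read 3.30, 3.41 and 3.53 in the lidocaine rats and 2.74, 2.73 and 2.76 in the control rats, a rise of 1.59-fold (log2 change 0.67 ± 0.073, SE, limma adjusted p = 0.0011). For both genes the groups were apart, but the control mean of Tnfrsf22 was close to the median of the negative controls, above only 51.8% of them. Near-identical gene copies can share probes, which was not tested for this pair. Their promoter windows were 49.0% to 49.6% identical in a global alignment with gaps, and no unrelated pair was aligned for comparison. These windows do not show whether the transcripts share probes.

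Of other neighbouring genes, Tnfrsf8, the CD30 receptor of activated lymphocytes, adjoins Tnfrsf1b and had a log2 change of 0.12 ± 0.087 (SE, limma adjusted p = 0.409). On chromosome 4, Cd27, Ltbr and Tnfrsf1a lie in a row with 1 other protein-coding gene between each, and their log2 changes were -0.02, 0.38 and 1.18. Cd27, a costimulatory receptor of T cells, did not pass (limma adjusted p = 0.869).

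Among the death receptors, Fas and the TRAIL receptor rose by small amounts. Fas, which starts the extrinsic death pathway when bound by Fas ligand, read 4.35, 4.38 and 4.44 in the lidocaine rats and 3.87, 3.98 and 3.88 in the control rats. Its groups were apart by 0.37, several times the SD within either group. The log2 change of Fas was 0.48 ± 0.063 (SE, limma adjusted p = 0.0024). Faslg, its ligand on cytotoxic lymphocytes, read 1.91, 2.02 and 1.91 in the lidocaine rats and 1.98, 1.81 and 1.80 in the control rats, and did not pass (limma adjusted p = 0.508). Both group means of Faslg were below the median of the negative controls, so no fold is given.

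Tnfrsf10b, the death receptor for TRAIL, read 3.65, 3.91 and 3.71 in the lidocaine rats and 3.50, 3.44 and 3.31 in the control rats. The lowest lidocaine value was 0.15 above the highest control value. Tnfrsf10b rose 1.27-fold (log2 change 0.34 ± 0.088, SE, limma adjusted p = 0.0278), and adjusted p was above the threshold without lidocaine rat 2, control rat 2 or control rat 3 or with all transcript clusters tested (up to 0.103). TRAIL itself, encoded by Tnfsf10, was the only member that fell. Tnfsf10 read 3.71, 3.85 and 4.55 in the lidocaine rats and 4.51, 4.98 and 4.74 in the control rats. Lidocaine rats 1 and 2 were below every control, while lidocaine rat 3 lay just above control rat 1. The level of Tnfsf10 was 1.63-fold lower (log2 change -0.71 ± 0.215, SE, limma adjusted p = 0.0495). That log2 change was -0.96 without lidocaine rat 3, and the call was lost on leaving out any other rat (adjusted p up to 0.167), with a trended prior and with all clusters tested. Tnfrsf21, the death domain receptor DR6 of neurons and oligodendrocytes, was the brightest member row. It read 7.89, 7.77 and 7.72 in the lidocaine rats and 7.95, 8.01 and 7.99 in the control rats. The groups were apart by 0.06, and Tnfrsf21 did not pass (log2 change -0.19 ± 0.067, SE, limma adjusted p = 0.0766). It was called lower with arrays centred (0.0381) and with dim rows left out.

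The receptors of the lymphotoxin and CD40 systems also rose slightly. Ltbr, the lymphotoxin beta receptor, which activates non-canonical NF-kB, read 5.46, 5.55 and 5.62 in the lidocaine rats and 5.21, 5.21 and 5.06 in the control rats. It rose 1.3-fold (log2 change 0.38 ± 0.074, SE, limma adjusted p = 0.0102). Cd40, the receptor through which T cells activate B cells and phagocytes, read 4.25, 4.31 and 4.22 in the lidocaine rats and 4.02, 3.83 and 3.91 in the control rats. For both genes the groups did not overlap. Cd40 rose 1.26-fold (log2 change 0.34 ± 0.071, SE, limma adjusted p = 0.0131), with adjusted p = 0.0514 without control rat 3. Cd40lg, the T cell ligand of Cd40, read 1.29, 1.52 and 1.30 in the lidocaine rats and 1.40, 1.32 and 1.09 in the control rats. Both its group means were below the median of the negative controls. Tnfsf14, called LIGHT, which binds both Ltbr and Tnfrsf14, read 4.57, 4.83 and 4.73 in the lidocaine rats and 4.89, 4.47 and 4.42 in the control rats. The groups overlapped widely and Tnfsf14 did not pass (limma adjusted p = 0.598).

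Of the ligands that act on B cells, the one for BAFF rose. Tnfsf13b encodes BAFF, a survival factor for B cells that myeloid cells and astrocytes are known to make, and read 3.96, 4.03 and 4.34 in the lidocaine rats and 3.43, 3.59 and 3.59 in the control rats. The groups were apart by 0.37, and lidocaine rat 3 was the highest. Tnfsf13b rose 1.49-fold (log2 change 0.58 ± 0.106, SE, limma adjusted p = 0.00849). Its receptors Tnfrsf13b, Tnfrsf13c and Tnfrsf17, known from B and plasma cells, did not pass (log2 changes 0.22, 0.14 and -0.12, limma adjusted p = 0.124, 0.353 and 0.465). Tnfsf13, the related ligand APRIL, read 4.92, 5.15 and 5.46 in the lidocaine rats and 5.13, 5.08 and 5.22 in the control rats. The lidocaine values lay on both sides of the controls (log2 change 0.03 ± 0.128, SE, limma adjusted p = 0.885).

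Among the costimulatory members, 1 ligand passed by a small margin. Tnfsf9, the ligand of the T cell receptor Tnfrsf9, read 3.75, 3.70 and 3.58 in the lidocaine rats and 3.16, 3.27 and 3.54 in the control rats. The gap between the groups was 0.05. Tnfsf9 rose 1.28-fold (log2 change 0.35 ± 0.104, SE, limma adjusted p = 0.0429), and the call was lost in 10 of 14 alternatives, which were leaving out any 1 lidocaine rat or control rat 1 or 2, centring, quantile normalization, array weights, all clusters tested and the replicate block (adjusted p up to 0.175). Tnfrsf9 read 5.37, 4.77 and 4.47 in the lidocaine rats and 4.60, 4.31 and 4.56 in the control rats. Lidocaine rat 1 stood above the controls and lidocaine rat 3 within them, and Tnfrsf9 did not pass (limma adjusted p = 0.239). The other costimulatory receptors Tnfrsf4, Tnfrsf14, Tnfrsf18 and Tnfrsf25 had log2 changes of 0.09 to 0.25, with none past the threshold. Nor did the ligands Tnfsf4, Tnfsf8, Tnfsf15, Tnfsf18 and Cd70 pass it, with log2 changes of -0.32 to 0.29. Tnfrsf14 was called higher with array weights and without lidocaine rat 1, and Tnfsf4 without lidocaine rat 1. Tnfsf15 was called lower with array weights and without lidocaine rat 3.

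Members of the RANK system, best known from bone, did not pass. Tnfrsf11a, which encodes RANK, read 6.36, 6.24 and 6.02 in the lidocaine rats and 6.40, 5.98 and 6.10 in the control rats. The groups overlapped, with a log2 change of 0.05 ± 0.126 (SE, limma adjusted p = 0.826). The decoy receptor Tnfrsf11b had a log2 change of 0.01 ± 0.141 (SE) and the ligand gene Tnfsf11, RANKL, one of 0.28 ± 0.132 (SE). A dimmer row for Tnfsf11 had a log2 change of 0.40. Tnfsf11 was called higher with array weights and without control rat 1. Tnfrsf19, known as TROY in glia and neural precursors, and the ectodysplasin receptor Eda2r had log2 changes of -0.23 and 0.03 (limma adjusted p = 0.223 and 0.868).

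Across 20 ligand and receptor pairs with a row for both genes, counted after the values were seen, both genes changed in 1, the receptor alone in 4, the ligand alone in 5 and neither in 10. The pair in which both changed was Tnfsf10 and Tnfrsf10b, in which the ligand fell and the receptor rose. In the pairs where the receptor alone changed, Fas, Cd40, Ltbr and Tnfrsf12a rose, while Faslg, Cd40lg, Tnfsf14 and Tnfsf12 did not pass. A ligand can stand in several pairs, so the pairs are not independent.

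Of the 11 members that rose, lidocaine rat 3 had the highest value in 7, lidocaine rat 1 in 2 and lidocaine rat 2 in 2, and lidocaine rat 1 the lowest in 6. The median difference from the control mean over the 38 members was 0.091, 0.221 and 0.173 in lidocaine rats 1, 2 and 3. In control rats 1, 2 and 3 it was 0.078, -0.051 and -0.008.

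**Figure D3:**
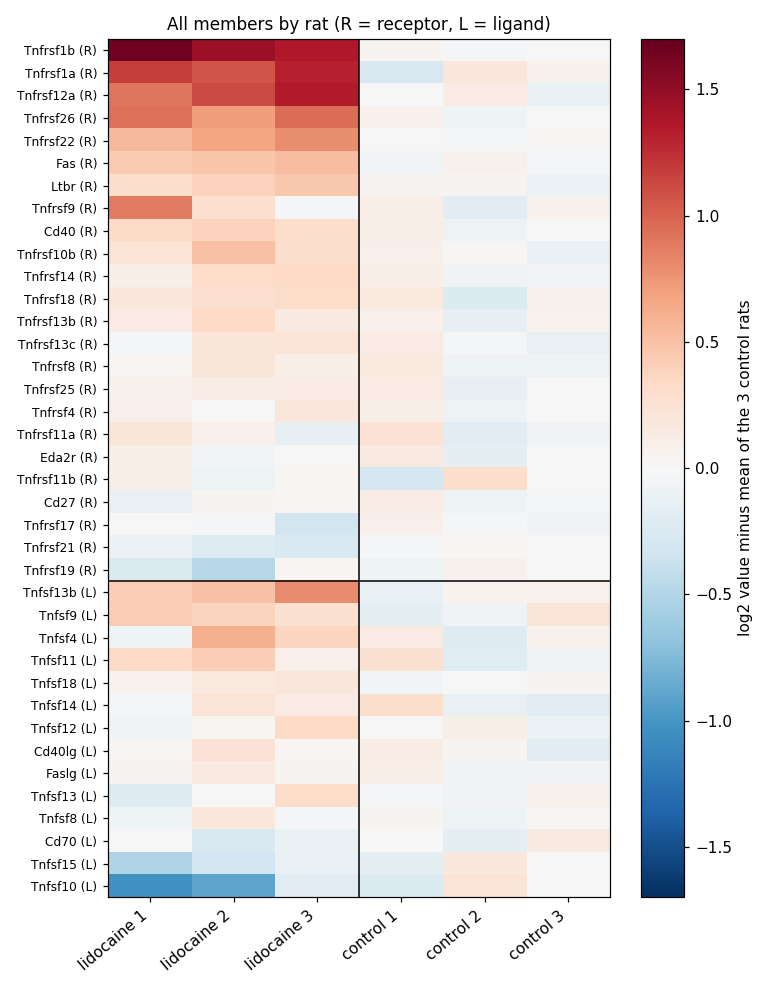
Each row is a member and each column a rat, and the colour is the log2 value minus the mean of the 3 control rats. The top receptor rows are raised in all 3 lidocaine rats, whereas in Tnfsf10 the drop is seen in lidocaine rats 1 and 2 and is small in lidocaine rat 3.

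Most members were dim on these arrays, as were most of all rows tested. Rows were counted as dim when their mean over all arrays was below 5.94, the averaged 95th percentile of the negative controls. With these left out, 5082 of 20995 rows and 5 of 38 members remained, and the difference in share was not tested. In 32 of 38 both group means were below the 95th percentile of the 1153 negative control rows, which averaged 6.03 in the lidocaine group and 5.84 in the control group, and 9 of the 12 members that changed were among them. Tnfrsf1a, Tnfrsf1b and Tnfrsf12a passed that level in the lidocaine group and not in the control group. Faslg, Cd40lg and Tnfsf18 were below the median of the negative controls in both groups. RMA compresses changes of dim rows, so their fold changes may be understated.

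**Figure D4:**
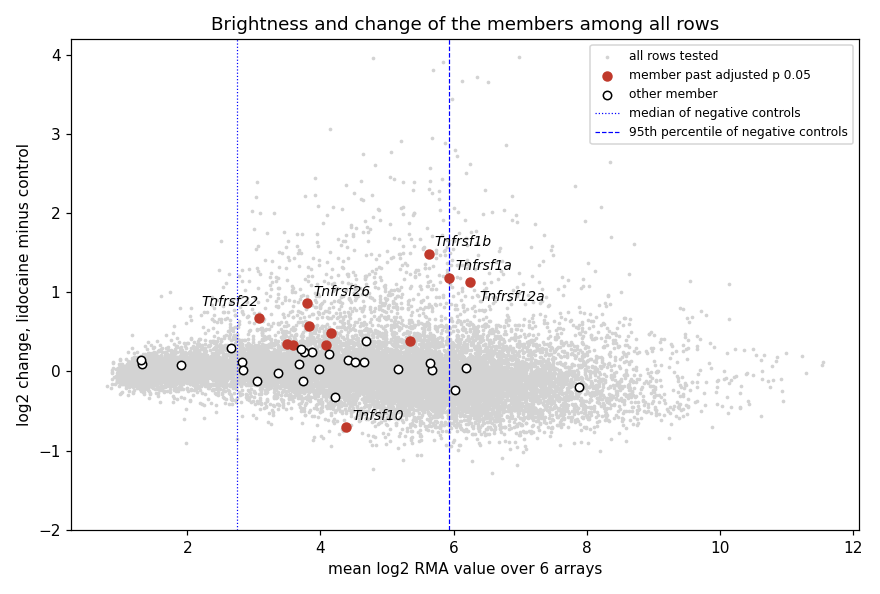
Mean log2 RMA value over the 6 arrays (x axis) against log2 change (y axis) for all 20995 rows in grey and the 38 members as circles, filled red where adjusted p was under 0.05. The vertical lines are the median and the 95th percentile of the negative controls, and most members lie between them.

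Markers of phagocytes moved with the group. Over all rows tested, 9.69% rose and 13.9% fell. Of 12 microglia and macrophage markers 11 rose and 0 fell, and their mean log2 value was 6.98 to 7.14 in the lidocaine rats, against 5.57 to 5.66 in the control rats. Of 7 neutrophil markers 6 rose (list mean 5.05 to 5.45 in the lidocaine rats and 3.75 to 3.96 in the control rats). However, 6 of the 7 were below the 95th percentile of the negative controls in both groups. All 7 neuron markers fell, with list means of 7.38 to 7.79 in the lidocaine rats and 8.09 to 8.23 in the control rats. Of 3 oligodendrocyte markers 2 fell (list mean 8.45 to 8.63 in the lidocaine rats and 8.89 to 8.99 in the control rats), and of 4 precursor markers Olig1 and Olig2 fell and Pdgfra rose. Of 4 astrocyte markers Gfap rose and Aldh1l1 fell (log2 changes 0.80 and -0.56). Of 13 T and NK cell markers 2 rose and 12 were below the 95th percentile of the negative controls in both groups. All 5 B and plasma cell markers were below that level in both groups, and 1 rose, Sdc1, which many other cells express. The part of these shifts in the changes of the superfamily genes was not tested. In whole tissue, fewer cells of a type, less RNA per cell and a larger share of RNA from other cells cannot be told apart.

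The signalling genes downstream of these receptors were counted in lists. Of 10 measured death domain adaptor and cell death genes, 5 rose, 2 fell and 3 did not pass (median log2 change 0.26). The share called was 70%, against 23.6% of all rows tested. Ripk3, the kinase of necroptosis, read 5.03, 4.92 and 4.73 in the lidocaine rats and 3.83, 3.76 and 3.70 in the control rats (log2 change 1.13, limma adjusted p = 0.000259). Ripk1, Casp8 and Cflar, which can join it in a cell death complex, had log2 changes of 0.39, 0.75 and 0.46. The groups did not overlap for any of these. Faim2, a neuronal inhibitor of Fas signalling, fell by 0.55 on the log2 scale (limma adjusted p = 0.0043), as did Madd, chosen after its value was seen, which binds Tnfrsf1a and fell by 0.46.

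Of 18 measured TRAF, IAP and ubiquitin genes, 4 rose, 1 fell and 13 did not pass (median 0.07). The share called was 27.8%, close to the 23.6% of all rows tested. Those that rose were Tnfaip3, Tnip1, Tnip2 and Birc3. Tnfaip3, the ubiquitin-editing enzyme A20, read 5.85, 5.66 and 5.10 in the lidocaine rats and 4.50, 4.80 and 4.70 in the control rats (log2 change 0.87, limma adjusted p = 0.0126). Its partners Tnip1 and Tnip2 and the inhibitor of apoptosis Birc3 had log2 changes of 0.43, 0.36 and 0.50. Of the 6 TRAF adaptors, Traf3, which restrains non-canonical NF-kB, fell by 0.21 (limma adjusted p = 0.0411), a call lost without any 1 rat, with the replicate number as a block (0.103) and with all clusters tested (0.134), and the other 5 did not pass.

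Of 17 NF-kB pathway genes, 7 rose, 1 fell and 9 did not pass (median 0.23). The share called was 47.1%, against 23.6% of all rows tested. The subunit genes Rel and Nfkb1 had log2 changes of 0.70 and 0.44, the nuclear cofactor gene Bcl3 of 0.81, and the inhibitor genes Nfkbia and Nfkbie of 0.81 and 0.34 (limma adjusted p = 0.000605 to 0.0156). The call of Nfkbia was lost without control rat 2 or 3 (adjusted p = 0.0654 and 0.0532). Rela, the main activating subunit, did not pass (log2 change 0.30, limma adjusted p = 0.158), and Tab3, a partner of the kinase TAK1, fell by 0.35. Rela and Tab3 were chosen after their values were seen.

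Of 7 genes for shedding or mRNA control of TNF, 4 rose and 0 fell (median 0.36). The share called was 57.1%, against 23.6% of all rows tested. Zfp36, which destabilises the mRNA of TNF, read 4.57, 4.73 and 4.56 in the lidocaine rats and 3.48, 3.58 and 3.37 in the control rats (log2 change 1.14, limma adjusted p = 0.00018). Rhbdf2, the iRhom that brings the TNF sheddase to the cell surface, and Timp3, an inhibitor of that sheddase, had log2 changes of 0.57 and 0.74. The sheddase genes Adam17 and Adam10 did not pass (log2 changes 0.21 and 0.22, limma adjusted p = 0.12 and 0.151); both were picked with their values known. Of 23 measured genes known to be induced by TNF, 16 rose (69.6%), 0 fell and 7 did not pass (median 1.03). Over all rows tested, 9.69% rose and 23.6% were called. Among the 16 that rose, Icam1, an adhesion molecule for leukocytes, Tnfaip6, a hyaluronan-binding protein, and the transcription factor Cebpd had log2 changes of 1.28, 2.77 and 1.92. Vcam1, Sod2, Tnfaip8 and Csf2 were among the 7 that did not pass (log2 changes -0.04, 0.06, 0.04 and -0.06). They were named with their values known. Other cytokines induce many of the same genes, and without a row for Tnf its own level is not analysed here. The mean of this list was 5.67, 5.49 and 5.01 in lidocaine rats 1, 2 and 3, against 4.15 to 4.21 in the control rats.

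**Figure D5:**
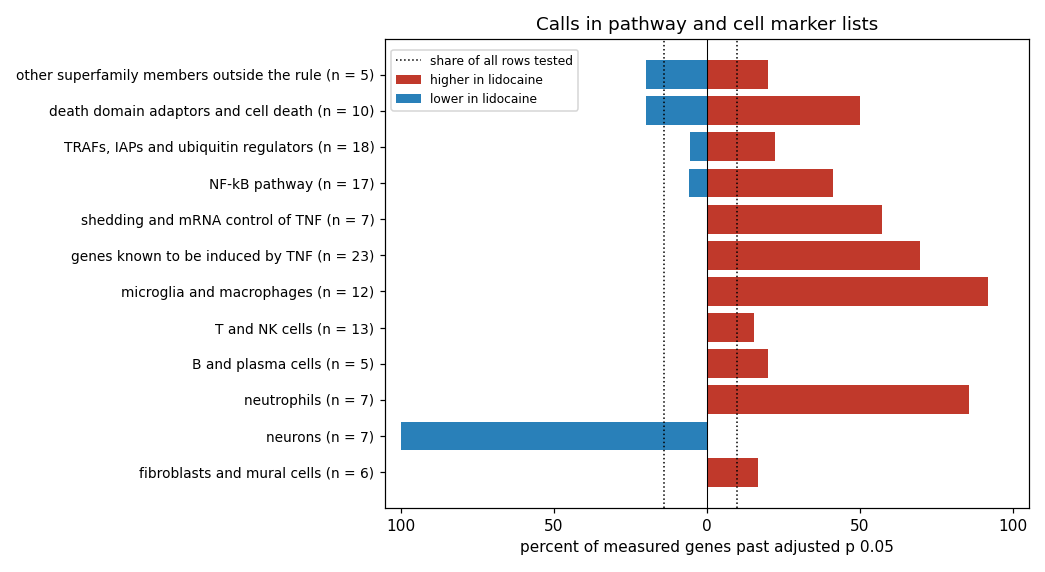
Percent of the measured genes of each list that rose (red, right of 0) or fell (blue, left of 0), with n genes beside the list name and dotted lines at 9.69% and 13.9%, the shares of all rows. Microglia and macrophage markers and neutrophil markers have the longest red bars, and the neuron markers are all blue.

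Of 5 measured relatives outside the naming rule, 1 rose, 1 fell and 3 did not pass. The share called was 40%, against 23.6% of all rows tested. Ngfr, the p75 neurotrophin receptor, which is a TNF receptor superfamily member, read 5.70, 6.62 and 7.75 in the lidocaine rats and 5.01, 5.48 and 5.09 in the control rats. The lidocaine rats spanned more than 2 log2 units, with lidocaine rat 3 the highest. The log2 change of Ngfr was 1.49 ± 0.439 (SE, limma adjusted p = 0.0433), and the call was lost without lidocaine rat 2 or any 1 control rat (adjusted p up to 0.12), with a trended variance prior (0.0658) and with all clusters tested (0.0722). Rell2, a binding partner of the receptor Relt, fell by 0.58 (limma adjusted p = 0.0113).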

How the data were processed

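The deposited values, 1 per transcript cluster, are on a log2 scale and were made by the authors with RMA, per the submitters' processing notes. RMA equalises probe distributions before summarising, so changes are relative; medians over clusters still ran from 3.07 to 3.20. The RMA software, array model and genome build were not given in the sources used here. RNA for labelling was 150 ng per array, per the labels' protocols. Of 63789 clusters, the platform annotation gave 21560 one gene each, 471 several and 41758 none. The brightest row per gene was kept, with 465 rows of joint names, giving 20995 rows. Symbols were updated through RefSeq gene identifiers (20304 matched, 1 changed).

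Groups come from the sample titles. limma 3.58.1 in R 4.3.3 (lmFit, eBayes) compared 3 lidocaine with 3 control rats. The number of arrays limits the precision. Members, lists and alternatives were chosen with earlier results of these data known. Values by rat are given for every member that passed, for Tnf receptors, Fas, Faslg, Cd40, Cd40lg and for the 3 brightest receptors and ligands; up to 5 called genes with the smallest p are considered from each pathway list. Tnfrsf9 was added after its values were seen. On simulated arrays of 20995 rows with independent noise in each row, 67, 67 and 66 genes were shifted by 0.5, 1 and 2 on the log2 scale. Of these, 64.2%, 94% and 100% were recovered, with 4 false calls. In the data far more rows, 4946, were called and rows need not vary independently, so these rates do not carry over to the comparison. Some genes of the fixed lists are not reported here.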

Additional observations from a re-analysis of the deposited data

How the results depend on the processing

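Under 15 alternatives, which changed centring, normalization, weights, variance prior, row choice or left out a rat, Tnfrsf1b, Tnfrsf1a, Tnfrsf12a, Tnfrsf26, Tnfrsf22, Fas, Tnfsf13b and Ltbr kept direction and call wherever they were tested, and no called member changed sign. Members that rose numbered 9 to 12 except with dim rows left out, where only 5 members remained. Of these, 3 were called, 2 higher and Tnfrsf21 lower, and 2595 rows were called over all. The number of members that fell was 2 with arrays centred or with array weights, 0 with a trended prior or with all clusters tested, and 0 to 3 on leaving out a rat. The 3 without lidocaine rat 3 were Tnfsf10, Tnfsf15 and Tnfrsf19. Calls over all rows ran from 2788 to 4409 on leaving out a rat. The median log2 change of the members was 0.101 to 0.203 on leaving out a rat, highest without control rat 1. Among the 19 members with values by rule, those not called that changed sign were Tnfrsf11a (-0.04 to 0.17 on leaving out a rat), Tnfsf12 (-0.01 to 0.19) and Tnfsf13 (-0.11 to 0.16, and -0.01 with arrays centred or -0.06 with array weights). The causes were not tested. The labels do not say that the titles' numbers pair the rats. Deviations from the group mean correlated at -0.064, -0.237 and 0.14 for rats with the same number. For rats with different numbers they correlated at -0.221 to 0.382. With 3 rats in each group, these values cannot decide whether rats were paired. With the number as a replicate block, 10 members rose, 1 fell and 4061 rows were called, and the calls of Tnfsf9 and Traf3 were lost. Signal close to the negative controls limits most members.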
